A study of Mus musculus with 79 samples.

Results

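The comparison described here is that of the wild-type clone G4 at 74 h of retinoic acid with the same clone at 48 h. Its members are 4 of the 79 samples of the series, 2 libraries at each time, chosen by clone, time and replicate in the labels. All 4 are mouse embryonic stem cells of the genotype E14;HoxTransEwt, which carry no deletion. They were given 1 uM retinoic acid in a serum medium that kept leukemia inhibitory factor, the cytokine that holds such cells undifferentiated. Clones E3 and H12, used below for contrast, went through the same treatment but lack a transient enhancer within the Hoxb locus. E14 is the parental wild-type line; its last time is 72 h in the sample titles and 74 h in the characteristics. G4 is 1 clone, so a trait of this clone and a trait of wild-type cells cannot be told apart, and the labels do not say whether its replicates are separate cultures. P-values therefore measure only the spread between replicate libraries, which may be technical. In the main fit that spread was pooled over all groups of clones G4, E3 and H12.

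Nuclear RNA was sequenced after ribosomal RNA depletion. Reads fall over the whole span of each gene, introns included, so that a level here follows the RNA present in the nucleus, newly made transcripts among it. The 4 libraries held between 6687137 and 10441707 reads assigned to genes. Levels are given as CPM, the reads of a gene scaled to a common library size after TMM normalization, where 1 read is worth between 0.096 and 0.147 CPM. Replicates differed beyond sampling noise (chi-square per degree of freedom 5.95 at 48 h and 9.86 at 74 h), so none was a copy of another. The 74 h pair was the more uneven: of 11962 genes with a mean of at least 5 CPM, 90 were over 2-fold higher in replicate 1 and 25 in replicate 2, against 16 and 14 at 48 h. Cyp26a1, Lefty1, Nodal and Nanog are among the genes higher in replicate 1 at 74 h, and results that rest on 1 of the 2 libraries are given with and without it.

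Retinoic acid, made from vitamin A by retinaldehyde dehydrogenases, enters the nucleus and binds receptors of the RAR and RXR families that sit on DNA at repeats of a short motif. In the embryo it patterns the hindbrain and spinal cord along the body axis by switching on Hox genes in the order in which they lie in their clusters. Cells limit the signal with CYP26 enzymes, which oxidise retinoic acid and are themselves induced by it. In cultured stem cells the same ligand ends the pluripotent state and favours neural and extraembryonic fates.

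The sequences just upstream of 4 of the genes that changed are shown because retinoic acid acts through letters of this kind. Each run is the RefSeq promoter on GRCm38.p6, from 250 bases before to 50 after the start of transcription, 5′ to 3′ along the gene's strand, and capitals mark AGGTCA, the core motif of these receptors, on either strand (TGACCT where it lies on the other strand). Stra8 (chr6:34920698-34920997, plus strand) and Rarg (chr15:102257473-102257772, minus strand) were lower at 74 h, whereas Hoxd3 (chr2:74711743-74712042, plus strand) and Hoxd4 (chr2:74721728-74722027, plus strand) were higher.
Stra8: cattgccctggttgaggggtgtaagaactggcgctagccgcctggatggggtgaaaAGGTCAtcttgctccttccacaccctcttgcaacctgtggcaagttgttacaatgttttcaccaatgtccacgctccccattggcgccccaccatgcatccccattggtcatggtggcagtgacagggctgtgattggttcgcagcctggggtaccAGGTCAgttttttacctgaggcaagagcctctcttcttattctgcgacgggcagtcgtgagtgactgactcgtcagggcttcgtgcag
Rarg: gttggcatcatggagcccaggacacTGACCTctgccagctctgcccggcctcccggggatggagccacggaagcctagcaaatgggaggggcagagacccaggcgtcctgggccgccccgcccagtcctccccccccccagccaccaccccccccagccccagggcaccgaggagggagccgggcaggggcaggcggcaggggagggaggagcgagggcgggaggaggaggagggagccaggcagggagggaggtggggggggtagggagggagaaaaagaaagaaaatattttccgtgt
Hoxd3: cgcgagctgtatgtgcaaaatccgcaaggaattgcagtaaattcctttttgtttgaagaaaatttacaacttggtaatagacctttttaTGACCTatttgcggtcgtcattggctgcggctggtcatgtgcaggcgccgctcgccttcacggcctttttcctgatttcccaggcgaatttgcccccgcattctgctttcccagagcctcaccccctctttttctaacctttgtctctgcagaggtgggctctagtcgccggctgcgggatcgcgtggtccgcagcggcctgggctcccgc
Hoxd4: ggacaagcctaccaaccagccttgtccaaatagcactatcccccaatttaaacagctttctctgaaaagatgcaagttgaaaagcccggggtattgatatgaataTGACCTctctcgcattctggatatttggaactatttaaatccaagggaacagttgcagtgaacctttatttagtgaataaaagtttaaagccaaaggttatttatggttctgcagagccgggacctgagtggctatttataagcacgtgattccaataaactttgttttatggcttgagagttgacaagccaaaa
The motif lay 194 and 38 bases before the start in Stra8, 225 in Rarg, 161 in Hoxd3 and 145 in Hoxd4. Of the 32851 promoters in the RefSeq table, which belong to 27025 genes, 16.3% hold these letters. Counted by gene, so do 5 of the 20 genes of the retinoic acid list that have an entry and 4 of 9 Hoxd genes. The 4 genes shown are all from among those that hold the letters, so their matches are no result. Cyp26a1, Dhrs3, Stra6 and Aldh1a2, which were also called, are not among those 5 of the retinoic acid list. The genes shown thus moved in both directions, and a match describes the sequence only.

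Between 48 h and 74 h, 858 genes were higher and 1051 lower of the 15896 tested, which is 5.40% and 6.61%, or 12% together (edgeR quasi-likelihood test, Benjamini-Hochberg adjusted p under 0.05). Changes of at least 2-fold numbered 401 upward and 784 downward, 2.52% and 4.93% of the genes tested. Among genes with a mean of at least 5 CPM in 1 group, those that rose most include Robo3, Nhlh1, Scrt2 and Dcx, regulators and products of young neurons. Those that fell most include the Nodal antagonists Lefty1 and Lefty2, the Nodal relative Gdf3 and the cofactor Tdgf1. The shares of 5.40% higher and 6.61% lower are the background for each count of list members in G4 below. The median log2 fold change over all genes was 0.01. Both 74 h libraries lay above both 48 h libraries for 29.4% of genes and below them for 27.9%, which is the background for each statement below that groups did not overlap.

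**Figure D1:**
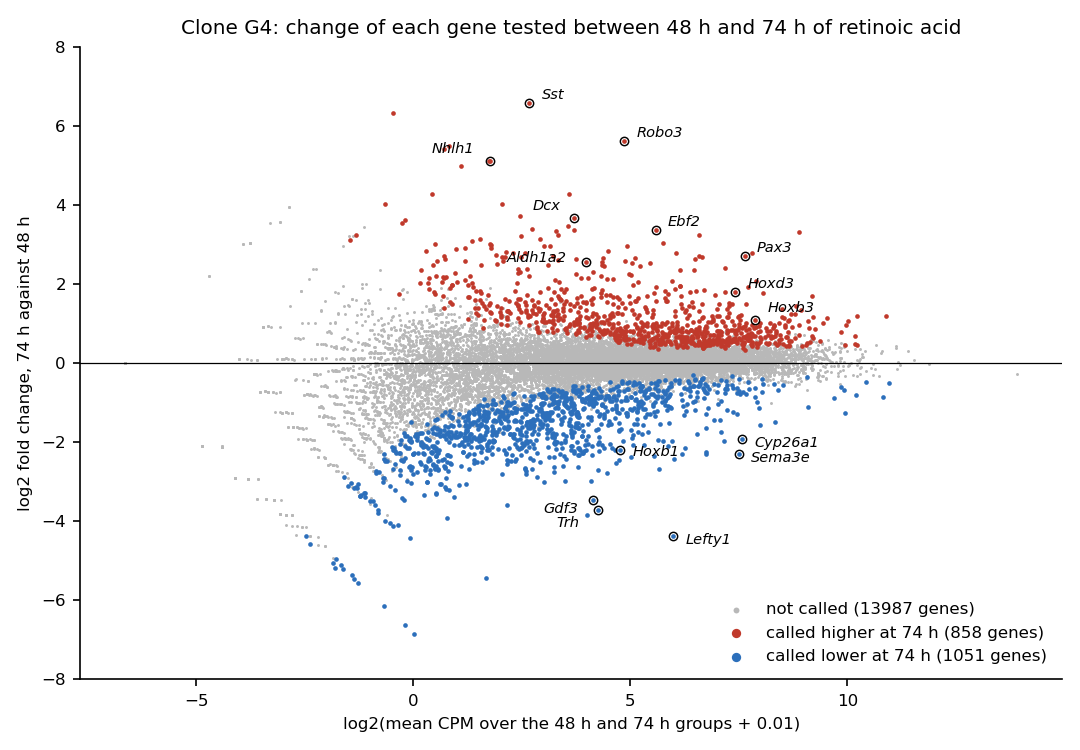
Each point is 1 of 15896 genes, with its mean level on the x axis (log2 of CPM + 0.01) and its log2 fold change from 48 h to 74 h on the y axis; red and blue mark genes called higher (858) and lower (1051). Circled genes are named in the text, with Robo3 and Sst far above and Lefty1 far below the mass of genes.

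The number of calls depended on single libraries. It fell from 1909 to 1106 and 990 without the first and second 48 h libraries, and to 756 without the second 74 h library. Without the first 74 h library 1577 remained. Of the 1909 genes, 572 (30.0%) were called in each of the 4 fits with 1 library left out, and none changed sign in any of them. Of the 104 genes named here or in the closing section that were called, 79 kept the call in all 4. With limma on the logarithm of the deposited signal (pseudocount 0.5) the balance moved to 592 higher and 1118 lower, and 16 of the 104 named genes lost the call, among them Msx1 (adjusted p = 0.0845), Hes5 (0.0536), Tfap2b (0.117), Ednrb (0.0812), Prrx1 (0.101) and H19 (0.0775). At pseudocount 1 it was lost by 11, Ednrb and H19 still among them. With only the 4 libraries of 48 h and 74 h in the fit 5 named genes lost it, Cyp26a1, Stra8, Dhrs3, Lefty1 and Gata4.

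Of 24 tested genes of the retinoic acid pathway, 5 fell and 1 rose, with a median log2 fold change of -0.17. Over all genes tested, 6.61% fell and 5.40% rose. Those that fell were Cyp26a1, Stra8, Dhrs3, Rarg and Stra6, and the 1 that rose was Aldh1a2. Cyp26a1, which encodes the enzyme that degrades retinoic acid, stood at 323 and 277 CPM at 48 h and at 114 and 43.9 CPM at 74 h. It was 3.78-fold lower (log2 fold change -1.92 ± 0.41 SE, adjusted p = 0.00228), and its groups did not overlap although the 74 h libraries differed from each other by more than 2-fold. At 0 h its mean had been 1.66 CPM and at 24 h 270 CPM, so both 74 h libraries were above that untreated mean. Stra8, a retinoic acid target best known from meiotic entry, went from 163 and 126 CPM to 58.2 and 24.0 CPM (3.48-fold lower, adjusted p = 0.000926).

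Dhrs3 encodes a reductase that turns retinaldehyde back into retinol. Its levels were 203 and 213 CPM at 48 h and 126 and 54.7 CPM at 74 h (2.29-fold lower, adjusted p = 0.0359). The receptor gene Rarg fell 1.84-fold and Stra6, which encodes the membrane receptor that takes up vitamin A, fell 1.56-fold (adjusted p = 0.00904 and 0.0373). Another receptor gene, Rarb, had a log2 fold change of -0.21 ± 0.21 (adjusted p = 0.590), and the second degrading enzyme, Cyp26b1, one of -0.97 ± 0.43 (adjusted p = 0.152), and neither passed. Without the first 74 h library Cyp26b1 did (0.0297). These falls leaned on the second 74 h library: without it Cyp26a1, Dhrs3, Rarg and Stra6 had adjusted p = 0.101, 0.477, 0.217 and 0.472. Dhrs3, Rarg and Stra6 also missed the threshold without the first 48 h library (adjusted p = 0.107, 0.0576 and 0.122), and Dhrs3 and Stra6 without the second (0.138 and 0.163). Stra8 kept its call in these 4 fits, but with only the groups compared in the fit it was lost, as were those of Cyp26a1 and Dhrs3 (adjusted p = 0.0798, 0.107 and 0.146).

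Aldh1a2 encodes the main embryonic enzyme that makes retinoic acid. It stood at 3.94 and 5.30 CPM at 48 h and at 24.9 and 28.5 CPM at 74 h, 5.84-fold higher (log2 fold change 2.55 ± 0.33, adjusted p = 1.88e-06). Its mean at 0 h and 24 h had been 2.29 and 2.45 CPM, and its mean was 4.62 CPM at 48 h, so the rise fell almost wholly between 48 h and 74 h. Aldh1a2 and Cyp26a1 thus moved in opposite directions over these hours.

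**Figure D2:**
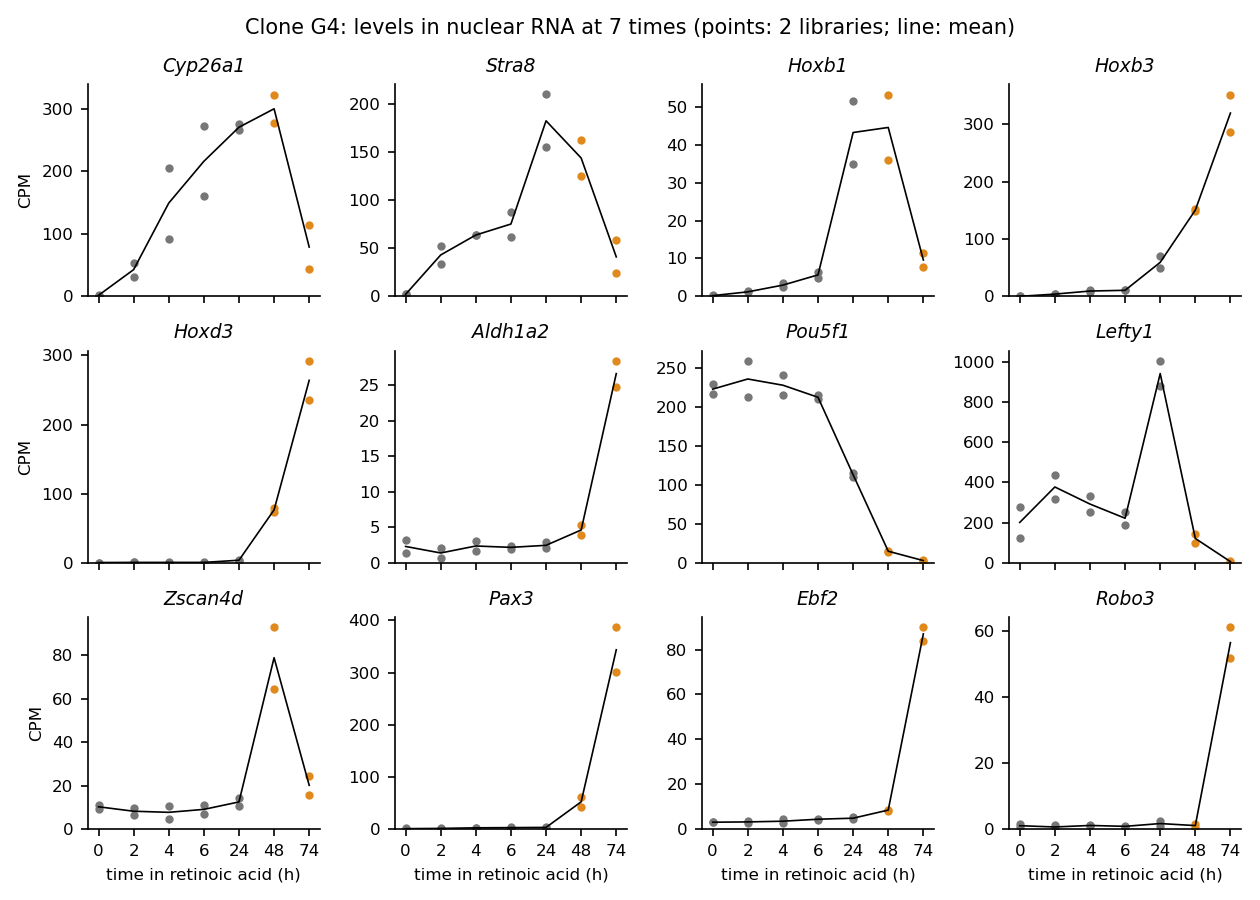
Levels of 12 genes in clone G4 in CPM (y axis, each panel with its own scale from 0) at 7 times from 0 h to 74 h of retinoic acid (x axis, evenly spaced and not to scale); points are the 2 libraries of a time, orange at 48 h and 74 h, and the line joins the means. Cyp26a1, Stra8, Hoxb1 and Zscan4d drop after 48 h, while Hoxb3, Hoxd3, Aldh1a2, Pax3, Ebf2 and Robo3 are highest at 74 h.

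Hox genes moved in both directions. Hoxb1 fell, Hoxb3 and all 4 tested Hoxd genes rose, and the rest of the Hoxb cluster did not pass the test. Hoxb1, a mark of the early hindbrain, stood at 35.9 and 53.3 CPM at 48 h and at 11.4 and 7.77 CPM at 74 h, 4.58-fold lower with no overlap (log2 fold change -2.19 ± 0.34, adjusted p = 3.33e-05). Hoxb3, which acts more posteriorly in the hindbrain, stood at 149 and 152 CPM and then at 287 and 352 CPM, 2.12-fold higher (adjusted p = 6.70e-05).

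The other 7 tested Hoxb genes gave log2 fold changes between -0.60 and 0.52. Hoxb2 was at -0.60 ± 0.28 (adjusted p = 0.178), Hoxb4 at 0.45 ± 0.23 (0.216), Hoxb5 at -0.09 ± 0.27 (0.891), Hoxb6 at 0.15 ± 0.30 (0.824), Hoxb7 at 0.52 ± 0.37 (0.418), Hoxb8 at 0.40 ± 0.25 (0.346) and Hoxb9 at 0.41 ± 0.22 (0.260). Both 74 h libraries lay above both 48 h libraries for Hoxb4, Hoxb7, Hoxb8 and Hoxb9, and below them for Hoxb2. Hoxb5 and Hoxb6 overlap the antisense gene Hoxb5os over most of their span, and whether the counting used strand is not given in the sources used here, so reads of the 2 strands cannot be told apart.

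In the Hoxd cluster on chromosome 2 all 4 tested genes rose, by between 2.32-fold and 3.55-fold. Hoxd3 (chr2:74711993-74748271) stood at 79.7 and 73.3 CPM at 48 h and at 236 and 292 CPM at 74 h, 3.45-fold higher (log2 fold change 1.79 ± 0.23, adjusted p = 1.94e-06). Hoxd4 went from 25.9 and 23.1 CPM to 79.8 and 94.8 CPM (3.55-fold, adjusted p = 2.37e-06), but lies inside the span of the Hoxd3 transcript, so part of its reads may belong to Hoxd3. Hoxd1 and Hoxd8 were low at 48 h, between 3.24 and 5.89 CPM, and 2.32-fold and 2.52-fold higher at 74 h (adjusted p = 0.0399 and 0.0437). Their calls were lost whichever of the 4 libraries was left out, with adjusted p between 0.122 and 0.252 for Hoxd1 and between 0.0841 and 0.241 for Hoxd8. Hoxd3 and Hoxd4 kept theirs in those 4 fits. With limma on the deposited signal at pseudocount 0.5 no Hoxd gene was called (adjusted p = 0.232 for Hoxd3 and 0.120 for Hoxd4), and at pseudocount 1 Hoxd4 was (0.0277) and Hoxd3 was not (0.0883). Hoxd3 had been at 3.62 CPM at 24 h, whereas Hoxb3 had already reached 59.3 CPM by then.

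**Figure D3:**
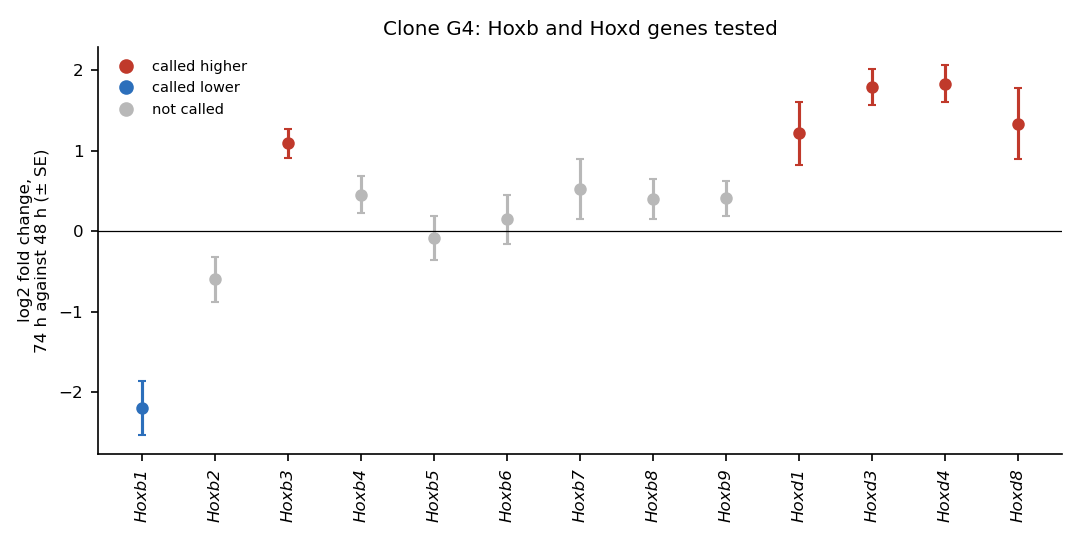
Log2 fold change from 48 h to 74 h (y axis, bars are the standard error) of each tested Hoxb and Hoxd gene, in cluster order along the x axis. Among called genes Hoxb1 lies below 0, and Hoxb3, Hoxd1, Hoxd3, Hoxd4 and Hoxd8 above it; grey genes did not pass the test.

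Markers of embryonic stem cells were checked against the labels. Of the 8 markers fixed for the check, Pou5f1, Nanog, Zfp42, Esrrb, Dppa5a and Utf1 fell between 48 h and 74 h, and Sox2 and Klf4 did not pass the test. Pou5f1, which encodes the transcription factor OCT4, stood at 14.2 and 15.3 CPM at 48 h and at 3.58 and 1.87 CPM at 74 h, 5.21-fold lower (adjusted p = 1.05e-06), after a mean of 223 CPM at 0 h. Sox2, which neural progenitors express too, was at 75.3 and 63.4 CPM and then at 59.6 and 79.6 CPM (log2 fold change -0.00 ± 0.21). It lies within the transcript of Sox2ot. Klf4 had a log2 fold change of -0.33 ± 0.38 (adjusted p = 0.654). Thus 6 of 8 defining markers of the labelled cell type were lower at 74 h than at 48 h. In bulk RNA, fewer cells of a type and less RNA per cell cannot be told apart.

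The decline ran through both lists of pluripotency genes. In the naive list 8 of 16 tested members fell and none rose (median log2 fold change -1.84), and in the general list 11 of 15 fell and none rose (median -1.56). Fbxo15, a target of OCT4 and SOX2, went from 89.9 and 85.6 CPM to 16.6 and 10.5 CPM (6.41-fold lower, adjusted p = 4.49e-08). The nuclear receptor gene Nr5a2 and the transcription factor genes Zfp42 and Tfcp2l1 were 4.64-fold, 4.64-fold and 3.29-fold lower (adjusted p = 0.00130, 0.000267 and 0.000257). Dppa2, Dppa4, Dppa5a and L1td1, which mark pluripotent and germ cells, were 5.72-fold, 2.95-fold, 5.11-fold and 3.89-fold lower (adjusted p = 0.000193, 6.00e-06, 0.000247 and 7.77e-05). Nanog was 6.19-fold lower (adjusted p = 0.00307, and 0.0858 without the second 74 h library). Esrrb was 4.17-fold lower (0.00302, but 0.102 without the first 48 h and 0.0683 without the second 74 h library). Utf1 was 4.33-fold lower (0.0194), a call kept only without the second 74 h library and lost with the others left out (0.0624, 0.0898 and 0.215).

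A noncoding transcript of pluripotent cells, D7Ertd143e (chr7:3218784-3221015), fell as well. It holds 7 of the 9 microRNA genes of the Mir290 to Mir295 cluster, which embryonic stem cells transcribe as 1 long precursor. Its nuclear level went from 32.7 and 28.1 CPM to 3.92 and 3.74 CPM, 7.92-fold lower (adjusted p = 2.47e-08), and it kept the call in all 4 fits with a library left out. The mature RNAs were not measured here, but 3 of them from this span are shown because they share 1 seed (bases 2 to 8, in capitals), the part that pairs with targets; sequences are from RefSeq on GRCm38.p6, 5′ to 3′.
mmu-miR-291a-3p: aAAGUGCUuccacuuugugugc
mmu-miR-294-3p: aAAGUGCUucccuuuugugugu
mmu-miR-295-3p: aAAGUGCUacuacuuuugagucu

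Genes of the Nodal loop fell steeply. Nodal is a secreted factor of the TGF-beta family that acts through the coreceptor encoded by Tdgf1 and switches on its own antagonists Lefty1 and Lefty2. Of 27 tested genes of the Nodal, activin and BMP list, 6 fell and 4 rose. Nodal stood at 40.3 and 37.4 CPM at 48 h and at 7.95 and 2.88 CPM at 74 h (6.92-fold lower, adjusted p = 0.000201). Gdf3, a related ligand, went from 32.8 and 32.2 CPM to 4.48 and 1.01 CPM (11.1-fold lower, adjusted p = 1.90e-06). The 74 h groups lay below the 48 h groups for both, and both calls held in all 4 fits with a library left out.

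Lefty1 had risen to a mean of 942 CPM at 24 h before it fell. It was at 142.6 and 99.2 CPM at 48 h and at 10.5 and 0.432 CPM at 74 h (20.6-fold lower, log2 fold change -4.37 ± 0.97, adjusted p = 0.00370). Its 2 libraries at 74 h differed by more than 20-fold, and without the second of them the adjusted p was 0.0833, and with only the groups compared in the fit it was 0.121. Lefty2 was 14.3-fold lower (adjusted p = 0.0180), which held only without the second 48 h library (0.120, 0.0574 and 0.194 without the first 48 h, first 74 h and second 74 h libraries). Tdgf1 had a log2 fold change of -3.59 ± 0.85 (0.00527, but 0.0908 without the first 48 h and 0.0695 without the second 74 h library). Tgfb1, which encodes another ligand of the family, went from 4.03 and 5.44 CPM to 1.23 and 1.30 CPM (3.66-fold lower, adjusted p = 0.000118). Of the members that rose, the BMP ligand gene Bmp6 went from 49.2 and 53.3 CPM to 75.9 and 113 CPM (1.84-fold, adjusted p = 0.00264, and 0.179 without the second 74 h library).

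FGF signalling through ERK, which pushes stem cells out of the naive state, is read from genes that the kinase induces. Of 21 tested members of that list 6 fell and 1 rose. Etv5, an ERK-induced transcription factor, went from 59.8 and 47.2 CPM to 13.3 and 12.2 CPM (4.19-fold lower, adjusted p = 1.03e-05). Dusp6, a phosphatase that switches ERK off, was 2.48-fold lower (adjusted p = 0.000938, and 0.0713 without the second 74 h library). The receptor gene Fgfr3 was the 1 member that rose, from 30.4 and 24.9 CPM to 87.8 and 116 CPM (3.67-fold, adjusted p = 0.000218).

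Most tested members of a set of genes of the 2-cell embryo, which a few cells of a stem cell culture express at any time, fell. Of 16 tested members 12 fell and none rose (median log2 fold change -1.87). The 12 include Dppa2, also counted with the pluripotency genes. Its mean was already falling, from 35.3 CPM at 24 h to 12.9 CPM at 48 h. Zscan4d stood at 64.7 and 93.1 CPM at 48 h and at 24.5 and 15.8 CPM at 74 h (3.87-fold lower, adjusted p = 1.83e-05), after 10.3 CPM at 0 h and 12.5 CPM at 24 h. The 2 libraries at 74 h lay between the means of 24 h and 48 h. Zscan4f was 4.86-fold and the deubiquitinase gene Usp17le 3.18-fold lower (adjusted p = 4.85e-05 and 3.35e-05). Genes of both families have near-identical copies, among which reads may have been split, so the values of single members and the number called are uncertain.

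**Figure D4:**
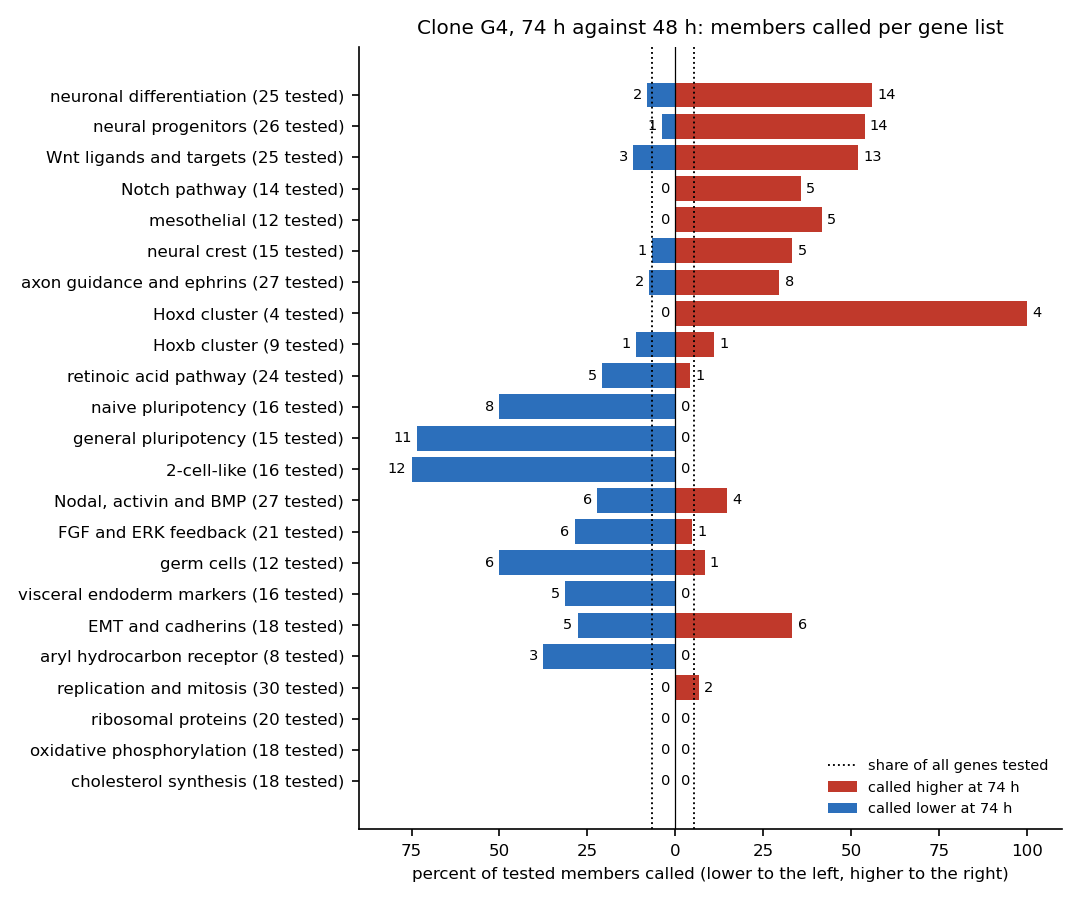
Share of the tested members of 23 gene lists that were called higher (red, to the right) or lower (blue, to the left) at 74 h than at 48 h, in percent, with the number of members at each bar; dotted lines mark the shares over all genes tested, 5.40% and 6.61%. Neural, Wnt and Hoxd lists lean to the right and pluripotency and 2-cell-like lists to the left, while ribosomal proteins, oxidative phosphorylation and cholesterol synthesis have no member called.

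Genes of neural progenitors rose over the same hours. Of 26 tested members 14 rose and 1 fell, with a median log2 fold change of 1.08 against 0.01 over all genes. Pax3, which marks the dorsal neural tube and the neural crest, stood at 61.4 and 43.0 CPM at 48 h and at 300 and 387 CPM at 74 h, 6.55-fold higher (log2 fold change 2.71 ± 0.22, adjusted p = 3.00e-10). Its relative Pax7 went from 4.42 and 2.80 CPM to 22.8 and 23.2 CPM (6.21-fold, adjusted p = 5.47e-07). Zic1, a further dorsal factor, went from 13.2 and 9.56 CPM to 56.2 and 69.2 CPM (5.46-fold, adjusted p = 6.39e-07). All 3 had been near 1 or a few CPM at 24 h, with means of 3.19, 0.834 and 0.960 CPM.

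Msx1, which BMP signals induce in the dorsal midline, was 3.08-fold higher (adjusted p = 3.04e-05). Neurog1, a proneural factor that commits progenitors to become neurons, went from 1.34 and 0.883 CPM to 13.8 and 10.5 CPM (10.5-fold, adjusted p = 9.79e-06). Without the second 74 h library 8 members of the list rose and 1 fell, and without either 48 h library 9 rose and 1 fell. The 5 genes named here kept their calls in all 4 fits.

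Genes of differentiating neurons followed. Of 25 tested members 14 rose and 2 fell (median log2 fold change 1.45). Ebf2 and Ebf3, transcription factors of early neurons, went from 8.26 and 8.68 CPM to 84.0 and 90.1 CPM and from 7.97 and 10.7 CPM to 50.5 and 67.5 CPM. They were 10.3-fold and 6.35-fold higher (adjusted p = 2.38e-10 and 6.84e-08). Dcx, which encodes the microtubule protein doublecortin of migrating neurons, was at 2.11 and 1.62 CPM and then at 27.1 and 21.4 CPM (12.7-fold, adjusted p = 2.35e-07). Onecut1, a factor of spinal and hindbrain neurons, was 6.15-fold higher (adjusted p = 9.89e-07). For all 4 both 74 h libraries lay far above both 48 h libraries. These 4 kept their calls in every fit with a library left out, and the list gave between 11 and 13 members that rose in those fits.

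Robo3, a receptor that lets commissural axons cross the midline, had the largest fitted rise among called genes with more than 3 reads at 48 h. It stood at 1.54 and 0.589 CPM at 48 h and at 51.8 and 61.2 CPM at 74 h, 48.8-fold higher (log2 fold change 5.61 ± 0.43, adjusted p = 2.38e-10). Several genes were almost unread at 48 h, and for these the ratio of reads with its 95% counting interval is given in place of a fitted fold. Sst, which encodes the neuropeptide somatostatin, had 2 reads at 48 h and 209 at 74 h, a ratio of 113 (31.0 to 941) after scaling for depth. Nhlh1, a neuronal helix-loop-helix factor, had 3 and 105 reads (37.9, 12.6 to 187), and the neuronal repressor gene Scrt2 had 3 and 102 (36.8, 12.3 to 182). The intervals cover counting error only. Fitted adjusted p-values for the 3 were 2.47e-06, 3.48e-06 and 4.48e-07.

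The remaining large rises by the same rule were Clvs1, Celf3, Drd2, Fstl5 and Upk3b, a mesothelial marker whose values stand with the other lineages. Clvs1, which encodes a lipid-binding protein of neurons, went from 1.25 and 1.03 CPM to 23.7 and 21.9 CPM (19.5-fold, adjusted p = 6.78e-09). Celf3, a neuronal RNA-binding protein, and Drd2, the dopamine receptor D2, were 13.2-fold and 10.1-fold higher (adjusted p = 7.96e-06 and 3.12e-06). Fstl5, a secreted follistatin-like protein, was 16.4-fold higher (adjusted p = 3.05e-08). Neuronal genes did not all rise. Stmn2 went from 33.8 and 33.3 CPM to 15.4 and 8.20 CPM (2.79-fold lower, adjusted p = 0.00923). Its call was lost without the first 48 h or the second 74 h library (0.0503 and 0.195), and it was named after its value was seen, as a member that fell. Stmn2 had been higher still at 0 h, with a mean of 333 CPM.

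Notch signalling, by which new neurons hold their neighbours as progenitors, moved with the neurogenic genes. Of 14 tested members 5 rose and none fell. The ligand genes Dll3 and Dll4 went from 8.54 and 8.24 CPM to 28.7 and 22.3 CPM and from 1.15 and 1.03 CPM to 8.96 and 5.32 CPM, 3.04-fold and 6.46-fold higher (adjusted p = 3.21e-05 and 0.000160). Hes5, the Notch target that maintains neural progenitors, went from 1.82 and 1.77 CPM to 12.3 and 16.3 CPM (7.85-fold, adjusted p = 0.000139). The receptor genes Notch1 to Notch4 were tested and not called.

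Wnt ligands and genes induced by Wnt also rose, 13 of 25 tested members against 3 that fell (median log2 fold change 0.95). Wnt1 and Wnt3a, ligands made by the dorsal midline of the neural tube, went from 6.82 and 6.03 CPM to 37.7 and 33.0 CPM and from 10.2 and 4.56 CPM to 30.6 and 25.9 CPM. They were 5.47-fold and 3.72-fold higher (adjusted p = 3.35e-05 and 0.000414). Wnt6 was 4.41-fold higher (adjusted p = 1.22e-05). The feedback inhibitor Nkd1 and the transcription factor Sp5, both induced by beta-catenin, were 3.86-fold and 4.12-fold higher (adjusted p = 1.89e-06 and 0.000139). Sfrp5, a secreted antagonist that binds Wnt ligands, went the other way, from 105 and 146 CPM to 33.0 and 22.9 CPM (4.45-fold lower, adjusted p = 5.43e-05). The ligands and targets named here and Sfrp5 kept their calls in all 4 fits.

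Markers of the neural crest, the migratory cells that leave the dorsal neural tube, are partly the same genes. Of 15 tested members 5 rose, among them Pax3 and Msx1, and 1 fell. Tfap2a and Tfap2b, factors of crest and surface ectoderm, were 3.68-fold and 4.21-fold higher (adjusted p = 9.10e-06 and 1.28e-05). Ednrb, the endothelin receptor of crest cells, was 2.09-fold higher (adjusted p = 0.000409). The member that fell was Sox10, the factor that defines the crest, named after its value was seen. It was at or under 1.62 CPM in all 4 libraries (adjusted p = 0.0416), and its call was lost whichever library was left out (0.110 to 0.225).

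Guidance receptors and ligands changed in both directions, 8 of 27 upward and 2 downward. Epha3, a receptor of ephrin ligands, went from 48.5 and 43.1 CPM to 245 and 240 CPM (5.28-fold, adjusted p = 1.62e-07). Sema3e, a secreted repellent, went from 303 and 295 CPM to 73.7 and 48.2 CPM (4.89-fold lower, adjusted p = 9.11e-06). In the Hedgehog list of 13 genes 3 rose and 2 fell. The coreceptor gene Boc rose from 233 and 249 CPM to 578 and 739 CPM (2.73-fold, adjusted p = 1.94e-06). Ptch1, both the receptor and a target of the pathway, fell from 789 and 696 CPM to 348 and 343 CPM (2.15-fold, adjusted p = 4.05e-06).

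Cell adhesion genes moved both ways. Of 18 members of the epithelial-mesenchymal transition and cadherin list 6 rose and 5 fell. Cdh1, which encodes E-cadherin, went from 368 and 314 CPM to 202 and 110 CPM (2.18-fold lower, adjusted p = 0.000738, and 0.0819 without the second 74 h library). Esrp1, the splicing factor of epithelia, was 2.11-fold lower, and Cdh6 2.81-fold lower (adjusted p = 0.000242 and 1.04e-05). Unlike Cdh1 and Esrp1, Cdh6 had first risen, from a mean of 7.66 CPM at 0 h to 476 CPM at 48 h. Cdh11 and Prrx1, genes of mesenchymal cells, were 2.44-fold and 5.21-fold higher (adjusted p = 3.62e-05 and 0.000885).

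Other lineages left smaller traces. Of 12 tested mesothelial markers 5 rose and none fell, led by Upk3b (2.69 and 1.77 CPM to 28.2 and 19.3 CPM, 10.3-fold, adjusted p = 2.52e-07), Aldh1a2 and Bnc1 (6.41-fold, adjusted p = 1.20e-05). Among 14 tested endoderm transcription factors Gata4 and Gata6 rose 2.37-fold and 1.71-fold (adjusted p = 0.0369 and 0.0340). In that list 1 other member fell, and its median log2 fold change was -0.42. Over all genes tested 5.40% rose and 6.61% fell. The Gata4 call was lost without the first 48 h or second 74 h library (0.377 and 0.744) and with only the groups compared in the fit (0.106), and that of Gata6 without either 48 h or the second 74 h library (0.247, 0.0951 and 0.403). Among 16 tested visceral endoderm markers 5 fell and none rose. The genes for transferrin and the apolipoproteins, Trf, Apob and Apoe, were 3.61-fold, 3.99-fold and 2.45-fold lower (adjusted p = 2.28e-05, 0.000266 and 0.000688). Of 12 parietal endoderm markers 4 rose, with the parathyroid hormone receptor gene Pth1r 3.41-fold higher (adjusted p = 6.84e-08), and 1 fell. The cells are labelled as 1 type, and which of these genes share cells was not measured.

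Housekeeping groups moved little. None of 20 ribosomal protein genes, 18 oxidative phosphorylation genes or 18 cholesterol synthesis genes passed edgeR's test, nor did any in the fits with 1 library left out. Of 30 replication and mitosis genes 2 rose, against 5.40% of all genes tested. They were the D-type cyclin genes Ccnd1 (1.90-fold, adjusted p = 0.00350) and Ccnd3 (1.51-fold, 0.0328). The call of Ccnd1 was lost without the second 48 h library (0.138) and that of Ccnd3 without any of the 4 (0.0910 to 0.180). Markers of feeder fibroblasts, which could carry over into such cultures although these were grown on gelatin, summed to 493 and 466 CPM at 48 h and to 388 and 222 CPM at 74 h. Of 8 tested markers of 11, Prrx1 rose and Col1a2 and Thy1 fell (2.37-fold and 2.58-fold, adjusted p = 0.0474 and 0.0240, kept only with the first 74 h library left out), and Fap had no read. Otherwise the adjusted p lay between 0.131 and 0.451 for Col1a2 and between 0.0901 and 0.257 for Thy1. Their part in the results was not tested.

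Beside G4, the 2 deletion clones were followed over the same hours. E3 had 566 genes higher and 897 lower (3.56% and 5.64%, together 9.20% of genes), and H12 had 2872 higher and 2815 lower (18.1% and 17.7%, together 35.8%). Of the genes that rose in G4, 378 rose in E3, which is 44.1% of the G4 list and 66.8% of the E3 list, and of those that fell 594 fell in E3 (56.5% and 66.2%). No gene called in G4 was called in the opposite direction in E3. For H12 the shared genes were 316 upward (36.8% of the G4 list, 11% of the H12 list) and 587 downward (55.9% and 20.9%), with 50 genes called higher in G4 and lower in H12 and 25 the reverse. Hoxb1 fell in E3 and H12 as in G4 (log2 fold change -1.65 and -1.91, adjusted p = 0.00160 and 9.34e-05). Hoxb3, called higher in G4, was at 0.88 in E3 (adjusted p = 0.00143) and at -0.30 in H12 (0.203), and the difference of G4 from both clones together was 0.79 ± 0.22 (adjusted p = 0.0780).

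The difference between the G4 change and the mean change of the deletion clones was tested directly. It passed for 137 of 15896 genes (0.862%), 105 in which G4 rose more or fell less (0.661%) and 32 the other way (0.201%). This lean to 1 side depended on the fit: it was 285 against 278 with the replicate number as a block, 500 against 490 without the first E3 library of 48 h, and 20 against 2 with only the groups compared. Robo3 changed more in G4 by 3.96 ± 0.58 on the log2 scale (adjusted p = 0.000299): its mean went from 1.06 to 56.5 CPM in G4, and its log2 fold change was 2.56 in E3 and 0.74 in H12. Thsd7b, a membrane protein of the nervous system, went from 10.5 and 13.2 CPM to 107 and 86.2 CPM in G4 (8.19-fold, adjusted p = 2.98e-10). Its difference was 3.10 ± 0.30 (adjusted p = 1.64e-07), with log2 fold changes of 0.73 in E3 and -0.86 in H12. Dcx differed by 3.19 ± 0.53, Fstl5 by 2.87 ± 0.57 and the zinc finger gene St18 by 2.88 ± 0.50 (adjusted p = 0.00122, 0.00684 and 0.00173). The order of the clones was the same for all 5 genes, G4 above E3 above H12. The place of G4 in it is largely set by the choice of these genes as the largest differences.

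Several of these differences were in neuronal genes. In the neuronal list 14 members rose and 2 fell in G4, 7 and 6 in E3, and 6 and 9 in H12. In total RNA of parental wild-type E14, 2 of 21 tested members rose and 5 fell. Of the 25 tested members of the neuronal list, 7 changed more in G4 and none less, against 0.661% and 0.201% of all genes. The number was 12 with the replicate block, 1 with only the groups compared, 4 with limma on the deposited signal, and 2, 3 and 4 without the first G4 library of 48 h, the second of 74 h and the second E3 library of 48 h. The 7 include Ebf3 (1.58 ± 0.34, adjusted p = 0.0148), the neuronal tubulin gene Tubb3 (1.61 ± 0.29, 0.00252) and the RNA-binding protein gene Elavl3 (1.77 ± 0.36, 0.00828), the last 2 named after their values were seen. In the neural progenitor list no member passed the test: Pax3, Pax7, Zic1 and Neurog1 had differences of 0.51 ± 0.26, 0.17 ± 0.45, -0.14 ± 0.35 and -0.41 ± 0.68 (adjusted p = 0.346, 0.889, 0.884 and 0.799). An interval of 2 standard errors to each side reaches beyond a difference of 1 on the log2 scale for Pax3, Pax7 and Neurog1.

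Genes that fell more or rose less in G4 included Tgfb1 (-1.97 ± 0.37, adjusted p = 0.00435), which was called in G4 and had log2 fold changes of -0.12 in E3 and 0.31 in H12. Fgf15, an FGF gene of the neural tube, was at 32.0 and 40.6 CPM and then at 38.1 and 32.4 CPM in G4, whereas it rose by 1.66 in E3 and 1.59 in H12 (difference -1.66 ± 0.26, adjusted p = 0.000612). Hand2, a factor of heart and sympathetic cells, did not pass the test in G4 and rose by 1.45 in E3 and 3.36 in H12 (difference -1.94 ± 0.41, adjusted p = 0.0204). Hsd11b2 differed by -1.74 ± 0.36 (adjusted p = 0.00817), and so did D7Ertd143e (-1.64 ± 0.35, 0.0128) and Ptch1 (-0.79 ± 0.18, 0.0250). Bmp6 went the other way (0.98 ± 0.25, 0.0468). Robo3, Thsd7b and Fgf15 passed under each of the alternatives tried. The others named in this comparison each lost the call when only the groups compared entered the fit, except Dcx. With limma on the deposited signal at pseudocount 0.5, Dcx, Bmp6, Ebf3, Hand2 and Hsd11b2 lost it (adjusted p = 0.217, 0.114, 0.235, 0.217 and 0.0803). The same genes lost it at pseudocount 1. Limma on the recovered reads lost Bmp6, Ebf3 and Hsd11b2 (0.105, 0.173 and 0.0542), and DESeq2 lost Hand2 (0.0991). Without the first G4 library of 48 h the calls of Bmp6, Ebf3, Ptch1, D7Ertd143e, Hand2, Hsd11b2 and Elavl3 were lost (adjusted p = 0.316, 0.271, 0.261, 0.136, 0.0651, 0.124 and 0.149). Without the second G4 library of 74 h the same 7 were lost (0.705, 0.226, 0.225, 0.147, 0.228, 0.205 and 0.104). Without the second of 48 h Bmp6, Fstl5 and Hand2 were lost (0.125, 0.0611 and 0.125), and without the first of 74 h Ptch1 and D7Ertd143e (0.0672 and 0.0621). Without the second E3 library of 48 h Bmp6, Ebf3, Fstl5, St18 and Elavl3 were lost (0.109, 0.0529, 0.283, 0.0830 and 0.0951), and without that of 74 h Bmp6, Ptch1, D7Ertd143e and Hand2 (0.124, 0.0915, 0.0621 and 0.0593). Without an H12 library Bmp6 was lost for the second of 48 h and the first of 74 h (0.0933 and 0.0902), and Ptch1 for the second of 74 h (0.0699). The number of genes called ranged from 35 without the first G4 library of 48 h to 990 without the first E3 library of 48 h. In H12 several lists rose at the same time, beside 18.1% of all genes. Of 16 visceral endoderm markers 10 rose and 1 fell, and of 22 basement membrane genes 14 rose and 2 fell. In G4 0 and 3 of them rose. Among housekeeping groups, 14 of 20 ribosomal protein and 10 of 18 oxidative phosphorylation genes rose in H12 and none fell. The part of these lists in the differences was not tested.

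**Figure D5:**
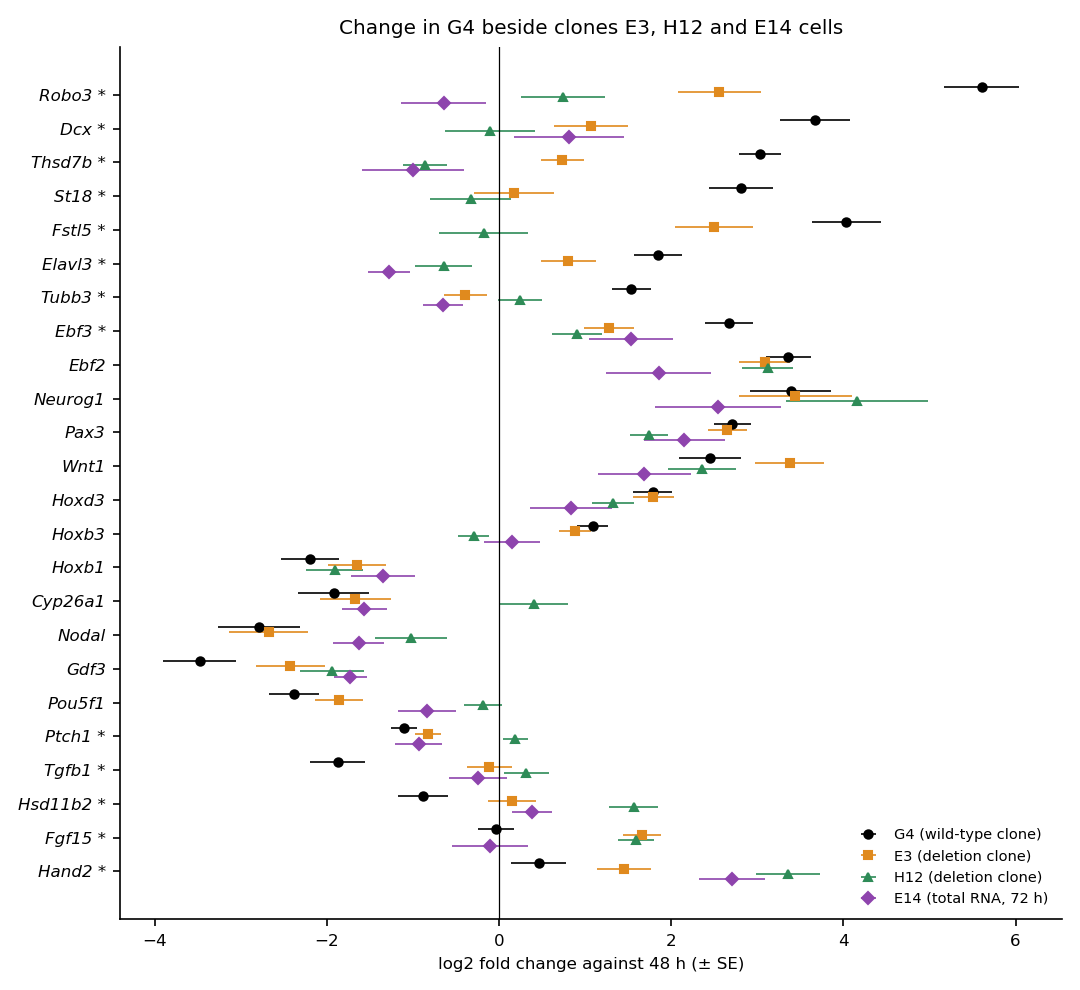
Log2 fold change (x axis, bars are the standard error) from 48 h to 74 h in clones G4, E3 and H12 and from 48 h to 72 h in E14, for 24 genes (y axis); an asterisk marks genes whose change in G4 differed from the mean of the deletion clones. In the top rows G4 lies to the right of both clones. Ebf2, Neurog1, Pax3, Wnt1 and Hoxd3 have no asterisk, and E14 lies to the left of G4 for each of them. For 2 genes there is no E14 value.

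E14 cells, measured in total RNA, gave 944 genes higher and 924 lower (6.27% and 6.14%, together 12.4% of 15061) with 4 libraries at each time. With the submitters' own scaling the balance became 3341 higher and 558 lower. Of the G4 genes tested in both, 174 rose in both (22.3% of the G4 list and 18.6% of the E14 list) and 332 fell in both (33.8% and 36.4%). Another 11 were called in opposite directions. The log2 fold changes over 14728 genes had a Pearson correlation of 0.48, a description across genes of nuclear and total RNA and not of replicates.

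Several genes called in G4 were called in the same direction in E14. Cyp26a1 and Dhrs3 fell in E14 (log2 fold change -1.56 and -1.32, adjusted p = 0.000685 and 3.31e-05), as did Lefty1 (-4.05, 0.000143), Nodal (-1.63, 0.00204), Gdf3 (-1.73, 1.29e-05), Sfrp5 (-1.80, 0.000175) and Sema3e (-1.60, 4.17e-05). Aldh1a2 (2.59, 0.00304), Pax3 (2.15, 0.00468), Zic1 (2.14, 0.000487), Epha3 (3.75, 0.000125) and Dlk1 (2.36, 0.000143) rose. Gata4 (1.70, 0.000699), Gata6 (1.27, 0.000625) and Hand2 (2.71, 0.000117) rose too, the last of which was not called in G4. These calls held in each fit with an E14 library left out, but those of Nodal and Aldh1a2 were lost with only the groups compared in the fit (0.0760 and 0.0794).

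Calls nearer the threshold in E14 were Stra8 (-0.66, adjusted p = 0.0161), Hoxb1 (-1.35, 0.0247), Cdh1 (-0.75, 0.0140), Hoxd4 (1.33, 0.0268), Neurog1 (2.54, 0.0236), Wnt1 (1.69, 0.0387), Rarg (-0.66, 0.0420), Ebf2 (1.85, 0.0465) and Ebf3 (1.53, 0.0360). Each of them missed it without the third or without the fourth library of 72 h. Without the third the adjusted p was 0.0577, 0.0795, 0.0594, 0.122, 0.119, 0.210, 0.150, 0.0504 and 0.155 in that order. Ebf2 missed it whichever library of either time was left out (0.0504 to 0.153), and with DESeq2 (0.0642). Wnt1 also missed it without any 1 of the 48 h libraries (0.0555 to 0.129). Hoxb1, Hoxd4, Neurog1, Rarg and Ebf3 missed it without some of them. With the submitters' own scaling Stra8 and Rarg missed it (0.0911 and 0.127). Hoxb3 (0.15, 0.797), Hoxd3 (0.84, 0.249), Dcx (0.82, 0.415), Robo3 (-0.64, 0.400) and Fgf15 (-0.11, 0.899) did not pass the test. The difference between G4 and E14 was not tested, since the tables differ in the RNA fraction and were normalized separately.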

How the data were processed

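Nuclear RNA of clones G4, E3 and H12 was measured at 7 times of retinoic acid with 2 libraries each, and total RNA of E14 cells in a separate table. The deposited values are a signal per transcript: per the values themselves, whole reads divided by 1 size factor per library, made with genome builds mm10 and dm6 (Drosophila cells were added as a spike-in). The tools named are Bowtie2, STAR, DESeq2 and SAMtools, per the submitters' processing notes. The authors' strand setting is not given in the sources used here. In the tables used, 100% of values gave whole reads within 0.1 read, so the main test was edgeR's quasi-likelihood test on those recovered read counts in place of a test on normalized values.

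Each gene symbol was represented by its transcript with most reads on average, as a share of the library. edgeR 4.0.16 in R 4.3.3 was run with its own low-count filter, TMM scaling and robust dispersions, with all groups of a table sharing the spread. A prior count of 2 was used only for limma on the recovered reads. Genes were called at a Benjamini-Hochberg adjusted p under 0.05. The standard error of a fold change is its size divided by the root of F. Alternatives used limma 3.58.1, DESeq2 1.42.0, other scalings, filters and transcripts, and 1 library left out. On data simulated for G4 over 15797 genes, 30% of genes changed 1.5-fold, 76% of those changed 2-fold, 98% of those changed 4-fold and 88% of those at 0.25-fold were recovered, with 5 false calls. Simulated reads were drawn independently from the fit's own dispersions, and the changed genes were taken above a minimum level. Deviations shared by same-numbered libraries were not simulated, so these values hold for that setting only.

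Named genes were the 12 largest called changes in each direction at a mean of at least 5 CPM with no overlap between groups, some of which are shown, up to 5 called members of each list by smallest p, all Hoxb genes and the 5 largest called differences between clones in each direction; exceptions are marked. The members of the comparison and the gene lists were chosen with earlier results of these data known. SCC1 libraries were not used here. A few results are not reported here.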

Additional observations from a re-analysis of the deposited data

Results flagged for a closer look

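For 15 named genes the change from 48 h to 74 h in G4 differed from the mean change of the deletion clones by edgeR's test of the difference. On the log2 scale G4 changed more for Robo3 (3.96), Dcx (3.19), Thsd7b (3.10), St18 (2.88), Fstl5 (2.87), Elavl3 (1.77), Tubb3 (1.61), Ebf3 (1.58) and Bmp6 (0.98). It was below the deletion clones for Tgfb1 (-1.97), Hand2 (-1.94), Hsd11b2 (-1.74), Fgf15 (-1.66), D7Ertd143e (-1.64) and Ptch1 (-0.79). The deletion and the identity of each clone cannot be told apart from a single wild-type clone.

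In E14, 1 library stood apart from the other 3 for Stra8 at 72 h (233 CPM, against 173, 177 and 178) and for Epha3 at 48 h (1.58 CPM, against 0.631, 0.696 and 0.739). Of 58 groups of 4 libraries examined, chance flags about 1 in 20.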

How the results depend on the processing

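Of the 104 named genes called in G4 none changed direction under any alternative run, but calls were lost: 16 and 11 with limma on the deposited signal at pseudocounts 0.5 and 1, 7 with limma on the recovered reads, 5 with only the groups compared, 4 with only clone G4, 4 with DESeq2, 3 with no filter and 7 to 23 with 1 library left out. Other scalings, the longest transcript and the replicate block lost none, and with a mean of at least 1 CPM 99 were tested and called. The number of genes called in G4 (1909) ranged from 756 to 1577 with 1 library left out, and that of 2-fold changes (1185) from 637 to 1077. For the difference between clones (137) it was 22 with only the groups compared and 35 to 990 with 1 library left out. For E3 (1463) the corresponding values were 430 and 521 to 1627, and for H12 (5687) 2606 to 5273 with 1 library left out. For E14 (1868) it was 3899 with the authors' scaling, 4483 and 4530 with limma at pseudocounts 0.5 and 1, 1149 with only the groups compared and 775 to 2485 with 1 library left out. The share of higher calls in G4 moved from 44.9% to 34.6% with limma on the signal; for the difference it moved from 76.6% to 50.6% with the replicate block, 50.5% without the first E3 library of 48 h and 90.9% with only the groups compared. With the replicate number as a block, calls were 2766 in G4, 563 for the difference and 2205 in E3; same-numbered G4 libraries of 48 h and 74 h deviated with a correlation of 0.27, and over all 21 pairs of G4 times the correlation lay between 0.11 and 0.58. Same-numbered libraries of G4 thus deviated together, a hint of pairing from the data. The labels do not say what a number marks, and the fit without the block is given as the main one. The causes were not tested. Depth limits genes near 1 CPM, where a few reads carry a value.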

Other observations

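Outside the groups above, Trh, which encodes thyrotropin-releasing hormone, was among the largest falls, from 37.9 and 33.3 CPM to 3.81 and 1.30 CPM (13.3-fold lower, adjusted p = 6.46e-05). Slc27a2, a fatty acid transporter gene, was 7.93-fold lower (adjusted p = 2.56e-07). Usp9y, on the Y chromosome, went from 11.6 and 17.2 CPM to 1.79 and 1.73 CPM (8.03-fold lower, adjusted p = 3.12e-06), while its neighbours Uty and Ddx3y had log2 fold changes of 0.16 ± 0.19 and -0.03 ± 0.21 (adjusted p = 0.671 and 0.949).

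Of 24 tested imprinted genes 6 rose and 2 fell. The growth genes Dlk1 and Igf2 and the noncoding H19 were 3.52-fold, 2.36-fold and 2.51-fold higher (adjusted p = 4.80e-05, 0.000117 and 0.00113). Of 20 glycolysis genes only the glucose transporter genes Slc2a3 (2.39-fold, adjusted p = 0.000606) and Slc2a1 (1.81-fold, 0.0357) were called, both lower. The call of Slc2a1 was lost whichever library was left out (0.0606 to 0.327). Of 8 genes of the aryl hydrocarbon receptor list 3 fell, among them Cyp1b1 (390 and 368 CPM to 161 and 93.0 CPM, adjusted p = 5.71e-05). Of 12 germ cell genes 6 fell and 1 rose. Beside these lists, 5.40% of all genes tested rose and 6.61% fell.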
